A study of Mus musculus with 61 samples.

Results

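The aldehyde dehydrogenase 1 family is described here in mouse pancreatic ductal organoid cells that were made to express Ngn3, Pdx1 and MafA in different combinations. Members were chosen by name from the count table after its Ensembl identifiers had been paired with mouse symbols, which gave Aldh1a1, Aldh1a2, Aldh1a3, Aldh1a7, Aldh1b1, Aldh1l1 and Aldh1l2, 7 of the 46078 genes listed. All 7 were measured in 61 libraries, each made from a pool of 50 sorted cells, and all 7 passed the filter on low counts.

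The organoids were gel-embedded cultures of C57BL/6 duct cells, grown from adult pancreas and infected with lentiviral vectors that switched on their factor when doxycycline was present. Cells carrying GFP-Ngn3, LSSOrange-Pdx1 and tdTomato-MafA were told apart by fluorescence and sorted after 8 days of induction. In WT cultures the Ngn3 vector encoded the wild-type protein, and in 6SA cultures it encoded a phospho-mutant protein whose serine targets of cyclin-dependent kinases had been changed to alanine. Each culture gave cells with Pdx1 only (P), MafA only (M), Pdx1 and MafA (PM), Ngn3 and Pdx1 (NP), Ngn3 and MafA (NM) or all 3 factors (NPM), so that there were 12 conditions. Cells without Ngn3 came from the same infected cultures and are the comparison used throughout; there were no uninfected samples among the 12 conditions. Sorting by colour did not fix how much of each factor a cell made. Replicates 1 and 2 were at passage 2 and replicate 3 at passage 5. The labels call the replicates biological without naming the animals, so the p-values measure the spread between these samples.

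Of the 61 libraries, 58 held at least 1000000 gene counts, and summing repeat pools of the same sample left 32 samples, 17 with Ngn3 and 15 without, with 2579583 to 19461008 counts each. Levels are given in CPM, gene counts scaled to a library total of 1000000 after TMM adjustment of the totals. A count of 3, taken as the limit of detection, was worth 0.136 to 1.01 CPM depending on the sample, and this limit covers counting error only. Neurog3, the gene for Ngn3, was at 7.87 to 329 CPM in the 17 samples with the vector and at 0 to 0.788 CPM in the 15 without. Duct markers summed to 17490 to 66800 CPM without Ngn3 and to 2522 to 22390 CPM with it. The 14 endocrine markers summed to 1.32 to 11.4 CPM without Ngn3 and to 648 to 14850 CPM with it. Mafa was at 0 CPM in 1 of the 22 samples with its vector, replicate 3 of 6SA PM cells. It was above every sample without the vector in 20 of them. Pdx1 was separated less well, at 9.84 to 191 CPM in the 21 samples with its vector and 3.21 to 30.6 CPM in the 11 without. Only 12 of these 21 samples lay above every sample without the Pdx1 vector.

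Enzymes of this family oxidise aldehydes to acids. Aldh1a1, Aldh1a2 and Aldh1a3 are the cytosolic retinaldehyde dehydrogenases, which carry out the last step of retinoic acid synthesis; retinoic acid patterns the early pancreas, and Aldh1a3 is known as a marker of dedifferentiated β-cells. Aldh1a7 is a rodent paralogue that lies beside Aldh1a1. Aldh1b1 is a mitochondrial member known as a marker of pancreatic progenitors and of rare duct cells that behave as progenitors. Aldh1l1 and Aldh1l2 are the cytosolic and the mitochondrial 10-formyltetrahydrofolate dehydrogenases, which release one-carbon units from folate as carbon dioxide.

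The starting sequences of 5 members were found in the RefSeq promoter table (GRCm38.p6), and none was found there for Aldh1a3 or Aldh1l2. The 250 bases before the start are shown first for Aldh1a2, Aldh1b1 and Aldh1l1, the members whose levels differed with Ngn3 and for which a window was found. Capitals mark every CANNTG, the E-box letters bound by basic helix-loop-helix factors, the class to which Ngn3 belongs. This motif reads the same on both strands. The windows are chr9:71215539-71215788 on the plus strand for Aldh1a2, chr4:45798772-45799021 on the plus strand for Aldh1b1 and chr6:90550543-90550792 on the plus strand for Aldh1l1, whose RefSeq start lies inside the longer gene span of the annotation.
Aldh1a2: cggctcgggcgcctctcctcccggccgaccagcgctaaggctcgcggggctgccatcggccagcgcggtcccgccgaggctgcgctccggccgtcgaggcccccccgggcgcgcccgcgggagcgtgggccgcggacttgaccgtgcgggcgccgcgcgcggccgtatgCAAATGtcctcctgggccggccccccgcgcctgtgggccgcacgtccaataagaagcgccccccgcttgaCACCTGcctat
Aldh1b1: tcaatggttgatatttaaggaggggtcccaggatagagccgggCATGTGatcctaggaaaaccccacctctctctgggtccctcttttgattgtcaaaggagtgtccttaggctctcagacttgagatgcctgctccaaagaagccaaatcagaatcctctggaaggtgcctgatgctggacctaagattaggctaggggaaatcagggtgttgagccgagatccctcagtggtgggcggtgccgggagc
Aldh1l1: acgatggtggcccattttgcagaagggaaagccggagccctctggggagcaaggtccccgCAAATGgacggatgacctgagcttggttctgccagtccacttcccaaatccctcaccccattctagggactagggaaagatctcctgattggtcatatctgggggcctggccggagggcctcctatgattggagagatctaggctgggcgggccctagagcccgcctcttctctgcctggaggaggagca
The Aldh1a2 window held 2 E-boxes, 81 and 11 bases before the start, the Aldh1b1 window held 1 at 207 bases and the Aldh1l1 window held 1 at 190 bases. Of 32851 promoter windows of 250 bases in the table, 66.2% held at least 1 such motif. The narrower form CAGATG, searched together with its reverse complement CATCTG, was in 14.4% of all windows and in none of these 3. The homeobox letters TAATTA were in 4.84% of all windows, and TGCTGA or its reverse complement TCAGCA in 16.1%, and neither was in these 3 windows.

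Aldh1a1 and Aldh1a7 are set side by side because reads of near-identical genes can be shared between them. The windows before the downstream Aldh1a1 start, chr19:20601718-20601967 on the plus strand, and before the Aldh1a7 start, chr19:20727557-20727806 on the minus strand, shared a run of 65 bases. Capitals mark that run.
Aldh1a1: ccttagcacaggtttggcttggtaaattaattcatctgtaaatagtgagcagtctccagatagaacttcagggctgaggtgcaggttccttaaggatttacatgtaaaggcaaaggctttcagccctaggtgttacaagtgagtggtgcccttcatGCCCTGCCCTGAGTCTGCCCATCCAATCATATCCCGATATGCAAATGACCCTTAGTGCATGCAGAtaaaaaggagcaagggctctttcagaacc
Aldh1a7: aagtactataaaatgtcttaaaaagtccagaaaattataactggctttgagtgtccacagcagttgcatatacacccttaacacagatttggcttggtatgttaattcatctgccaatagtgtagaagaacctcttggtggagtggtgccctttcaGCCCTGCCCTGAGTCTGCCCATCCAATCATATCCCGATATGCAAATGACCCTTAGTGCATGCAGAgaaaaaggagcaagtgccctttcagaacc
In both windows the run lay from 94 to 30 bases before the start. Of the 2017 stretches of 50 bases, the length of the reads, in annotated Aldh1a7 transcripts, 151 (7.49%) also occurred in Aldh1a1 transcripts. No stretch of that length was shared by any other pair of members.

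The genes lie on 6 chromosomes of GRCm38. Aldh1a1 (ENSMUSG00000053279) spans chr19:20492715-20643465 on the plus strand, and Aldh1a7 (ENSMUSG00000024747) follows at chr19:20692953-20727562 on the minus strand. Aldh1a2 (ENSMUSG00000013584) is at chr9:71215789-71296243 on the plus strand, Aldh1a3 (ENSMUSG00000015134) at chr7:66390890-66427517 on the minus strand and Aldh1b1 (ENSMUSG00000035561) at chr4:45799022-45804604 on the plus strand. Aldh1l1 (ENSMUSG00000030088) is at chr6:90486427-90600203 on the plus strand, and its exons share 499 bases with the antisense gene Gm15756. Aldh1l2 (ENSMUSG00000020256) is at chr10:83487450-83534140 on the minus strand, and its exons share 1056 bases with D10Wsu102e on the other strand. Whether strand was used in counting is not given in the sources used here, so counts in these shared parts are uncertain.

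Over all combinations, 4 of the 7 members differed between cells with and without Ngn3. Aldh1a2 fell from 19.8 ± 17.2 CPM (SD, n = 15) without Ngn3 to 3.18 ± 2.72 CPM (SD, n = 17) with it, and Aldh1l1 also fell, whereas Aldh1b1 and Aldh1l2 rose. Aldh1a1 and Aldh1a7 did not pass the test, and Aldh1a3 stayed near the limit of detection. With edgeR's quasi-likelihood test at an adjusted p under 0.05, 21.5% of the 24004 genes tested differed in this comparison, 11.1% being higher and 10.5% lower with Ngn3. The median log2 fold change was -0.46 over the 7 members and 0.07 over all genes tested. With plain totals in place of TMM scaling the median over all genes was 0.28, so the log2 fold changes below are read against a shift of this size. Only a bulk level was measured, so fewer cells making a transcript and less transcript per cell cannot be told apart.

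**Figure D1:**
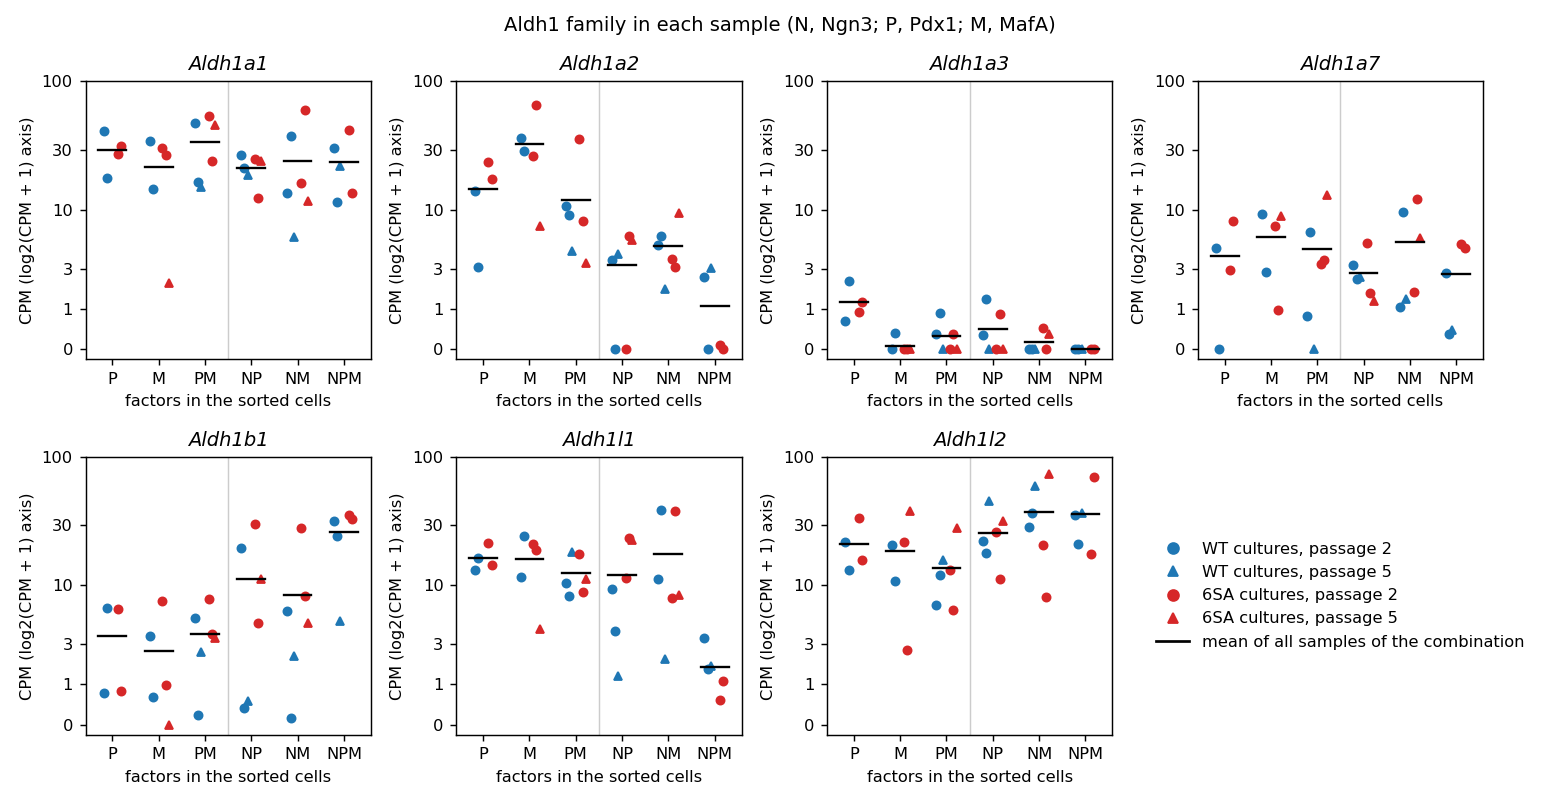
Level of each Aldh1 member in each of the 32 samples, in CPM on a log2(CPM + 1) axis, by the factors carried by the sorted cells (N, Ngn3; P, Pdx1; M, MafA). Colours give the culture, circles passage 2 and triangles passage 5, and bars the mean of the samples of a combination. Aldh1a2 ranged from 3.07 to 65.8 CPM without Ngn3 and from 0 to 9.47 CPM with it, and Aldh1l1 in cells with all 3 factors ranged from 0.543 to 3.48 CPM.

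Aldh1a2, the main retinaldehyde dehydrogenase of the embryo, showed the largest fitted fall of the 4. In cells with MafA only its level was 36.7 and 29.3 CPM in the WT replicates and 27.0, 65.8 and 7.38 CPM in the 6SA replicates. In cells with Pdx1 only it was 14.2 and 3.07 CPM in WT cultures and 24.1 and 17.6 CPM in 6SA cultures. In PM cells it was 10.7, 9.06 and 4.46 CPM in WT replicates and 35.9, 8.09 and 3.43 CPM in 6SA replicates. All 15 samples without Ngn3 therefore had Aldh1a2 above the limit of detection, with the highest levels in the MafA-only cells. With Ngn3 it was 3.61, 0 and 4.10 CPM in WT NP cells and 0, 6.05 and 5.57 CPM in 6SA NP cells. In NM cells it was 5.001, 5.999 and 1.815 CPM in WT replicates and 3.73, 3.12 and 9.47 CPM in 6SA replicates. In NPM cells it was 2.43, 0 and 3.06 CPM in WT replicates, and in 6SA cells a single count gave 0.0678 CPM in replicate 1 and none was found in replicate 2. All 17 samples with Ngn3 lay below the median of those without it, and 8 of the 17 lay below every sample without it. The log2 fold change was -3.36 ± 0.59 (SE), with an edgeR adjusted p of 9.1e-05.

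Single pools showed the same split. Aldh1a2 had at least 1 count in all 29 kept libraries without Ngn3 and in 17 of 29 with it. In 6 of the 17 samples with repeat pools, at least 1 pool had no Aldh1a2 count, and in 4 of them another pool of the same sample had more than 10. Pools of 50 cells from 1 sample thus differed widely at these levels.

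The fall of Aldh1a2 passed the test at passage 2 and missed it at passage 5, and the passages were not shown to differ. The samples with Ngn3 also differed in Neurog3, at 34.9 to 329 CPM at passage 2 and 7.87 to 38.8 CPM at passage 5. Of the 14 endocrine markers, 9 were called lower at passage 5, with a median log2 difference of -2.09 over the list. The part of these differences in the passage results was not tested. At passage 2 the 12 samples without Ngn3 had a median of 20.8 CPM (3.07 to 65.8) and the 12 with Ngn3 had 2.77 CPM (0 to 6.05), and without replicate 3 the log2 fold change was -3.82 (edgeR adjusted p = 0.00022). At passage 5 the 3 samples without Ngn3 had 3.43, 4.46 and 7.38 CPM, and the 5 with Ngn3 had 1.81 to 9.47 CPM with a median of 4.10 CPM. These ranges overlap, and an edgeR fit of passage 5 alone gave a log2 fold change of -0.06 (adjusted p = 1). The difference between the 2 passages was itself tested as an interaction, which gave 2.88 ± 1.28 (SE) on the log2 scale with an edgeR adjusted p of 0.80. In that interaction edgeR called 0 genes, with 1426 genes at an unadjusted p under 0.05, and DESeq2 called 137 genes and none of the family. Passage 5 held no Pdx1-only sample, 1 MafA-only sample and 1 sample of each condition present. Its fitted change is therefore not the same average over conditions as the change at passage 2.

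**Figure D2:**
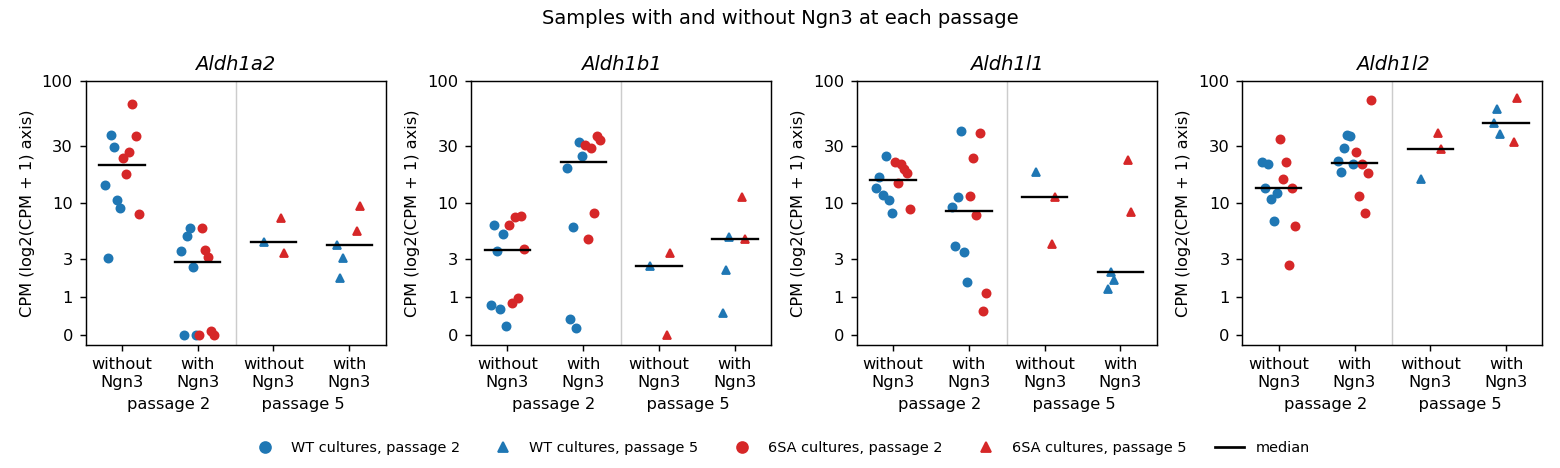
Levels of Aldh1a2, Aldh1b1, Aldh1l1 and Aldh1l2 in samples with and without Ngn3 at passage 2 (12 and 12 samples) and passage 5 (5 and 3 samples), in CPM on a log2(CPM + 1) axis, with bars at the median. The median of Aldh1a2 without Ngn3 is 20.8 CPM at passage 2 and 4.46 CPM at passage 5, where the samples with Ngn3 have a median of 4.10 CPM.

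By combination, Aldh1a2 passed the test where Ngn3 was added to Pdx1 and MafA. NPM samples had 1.11 ± 1.51 CPM (SD, n = 5) and PM samples 11.9 ± 12.1 CPM (SD, n = 6), with no overlap between them. The fitted log2 change was -5.22 ± 1.21 (SE) with an edgeR adjusted p of 0.0031, in a comparison where 17.8% of all genes tested were called, 9.42% higher and 8.40% lower. The size of this estimate depends on the small prior count of the fit, since the 6SA NPM samples held 1 count between them, and without replicate 2 it was -4.72 with an adjusted p of 0.12. Adding Ngn3 to Pdx1 gave -2.07 ± 0.92 (SE, adjusted p = 0.35) and adding it to MafA gave -2.78 ± 0.90 (SE, adjusted p = 0.078), where 1.49% and 4.67% of all genes were called by edgeR. In these 2 comparisons edgeR called no member, 1 member in each had an unadjusted p under 0.05, and DESeq2 called none and 1. In 6SA cultures, where 14.1% of all genes were called, the fitted change over the combinations was -4.46 ± 0.92 (SE, adjusted p = 0.0013). Without replicate 2 it was -4.18 and the call was lost. In WT cultures, where 8.59% were called, the fitted change was -2.25 ± 0.74 (SE, adjusted p = 0.056). In WT cultures edgeR called 0 members, 4 had an unadjusted p under 0.05 and DESeq2 called 2. The test for any difference among the 12 conditions called Aldh1a2 (edgeR adjusted p = 0.034), with 7.20% of all genes called. That call was lost with plain totals and could be lost with a replicate left out. The 2 cultures were not shown to differ, since the difference of -2.21 between these changes had an interval of -4.42 to -0.0043 and an edgeR adjusted p of 1, in a test where edgeR called 0 genes, 647 had an unadjusted p under 0.05 and DESeq2 called 5.

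Aldh1a2 is also made by mesenchymal cells of many organs, so their markers were read in the same samples. The 9 mesenchymal markers summed to 0.143 to 14.8 CPM without Ngn3, with a median of 2.25 CPM, and to 0.204 to 312 CPM with Ngn3, with a median of 1.28 CPM. Lum was at 0 in all 32 samples. The 312 CPM came from replicate 1 of WT NM cells, where Aldh1a2 was 5.001 CPM, and the next highest sample had 19.6 CPM. Without that sample the log2 fold change of Aldh1a2 was -3.38 (edgeR adjusted p = 0.00017), and 3 of the 7 members were called, with 4601 genes called in all against 5168. The part of the duct and endocrine shift, given above for the marker sums, in the changes of the members was not tested.

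Aldh1b1, the mitochondrial progenitor marker, was the member that rose most. Without Ngn3 it ranged from 0 to 7.66 CPM over the 15 samples, with a median of 3.43 CPM. With Ngn3 it ranged from 0.130 to 36.1 CPM over the 17 samples, with a median of 8.20 CPM. Of the samples with Ngn3, 9 lay above every sample without it, and 4 lay below the median of those without it. This was a log2 fold change of 1.91 ± 0.61 (SE) with an edgeR adjusted p of 0.024. The call was lost without replicate 1 (adjusted p = 0.059), without replicate 2 (adjusted p = 0.11) and without replicate 1 of WT NM cells (adjusted p = 0.053), while the fitted changes stayed between 1.70 and 2.13 whichever of these, or replicate 3, was left out.

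The highest Aldh1b1 levels were in cells with all 3 factors. NPM cells had 32.6, 24.7 and 4.92 CPM in the WT replicates and 36.1 and 33.9 CPM in the 6SA replicates. PM cells had 5.29, 0.174 and 2.53 CPM in WT replicates and 7.66, 3.76 and 3.43 CPM in 6SA replicates. Of the 5 NPM samples, 4 lay above every PM sample, the exception being the passage 5 sample at 4.92 CPM. On the log2 scale the difference was 2.87 ± 1.02 (SE) and the edgeR adjusted p was 0.0501, just over the threshold. Under the alternatives the adjusted p ran from 7.0e-05 to 0.29. With the replicate number as a block, 4 members rather than 2 were called in this comparison, as given below. In NP cells Aldh1b1 was 19.9, 0.337 and 0.492 CPM in WT replicates and 30.5, 4.77 and 11.3 CPM in 6SA replicates. NM cells had 6.13, 0.130 and 2.27 CPM in WT replicates and 28.8, 8.20 and 4.74 CPM in 6SA replicates. Replicate 1 thus held the highest NP and NM values in both cultures, and the combinations with 2 factors overlapped widely with the cells without Ngn3. Of the 5 NPM samples, 3 lay above all 27 other samples, and NPM cells against the other Ngn3 cells gave 1.72 ± 0.81 (SE, edgeR adjusted p = 0.23).

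Aldh1b1 was also read within each passage, and the passages differed in Neurog3 level and in the conditions present, as given above. With Ngn3 the median was 22.3 CPM in the 12 samples at passage 2 and 4.74 CPM in the 5 at passage 5, and without Ngn3 it was 3.70 and 2.53 CPM. Within passage 5 the log2 fold change with Ngn3 was 1.23 (edgeR adjusted p = 0.64), and at passage 2 it was 2.06 (adjusted p = 0.025). The passage term itself was -1.55 ± 0.74 (SE, adjusted p = 0.18), in a comparison where 8.23% of all genes were called.

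The cytosolic folate enzyme Aldh1l1 had its lowest mean in cells with all 3 factors, and adding Ngn3 to either factor alone did not pass the test. NPM cells had 3.48, 1.61 and 1.73 CPM in WT replicates and 0.543 and 1.13 CPM in 6SA replicates. PM cells had 10.6, 8.19 and 18.4 CPM in WT replicates and 17.9, 8.82 and 11.3 CPM in 6SA replicates. The groups did not overlap, the means being 1.70 ± 1.10 CPM (SD, n = 5) and 12.5 ± 4.51 CPM (SD, n = 6). The log2 fold change was -3.17 ± 0.69 (SE) with an edgeR adjusted p of 0.0017. It was -3.59 without replicate 2, with an adjusted p of 0.065.

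In the other Ngn3 cells Aldh1l1 varied over a wide range. NM cells had 11.3, 39.5 and 2.12 CPM in WT replicates and 7.88, 38.4 and 8.41 CPM in 6SA replicates, so that replicate 2 was the highest in both cultures. NP cells had 9.29, 4.05 and 1.31 CPM in WT replicates and 11.4, 23.7 and 23.2 CPM in 6SA replicates. P cells ranged from 13.4 to 22.0 CPM (n = 4) and M cells from 4.22 to 24.98 CPM (n = 5). Adding Ngn3 to MafA gave 0.11 ± 0.60 (SE, edgeR adjusted p = 1) and adding it to Pdx1 gave -0.76 ± 0.62 (SE, adjusted p = 0.73). NPM cells lay below the median of the NP and NM cells in all 5 samples, and 2 of them lay below every NP and NM sample.

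Adding the third factor passed the test for Aldh1l1 from both sides, but the levels of the other factors differed too. Pdx1 was at 9.84 to 48.4 CPM in NP cells and 30.85 to 191 CPM in NPM cells. Mafa was at 0.306 to 7.79 CPM in NM cells and 3.46 to 12.7 CPM in NPM cells. Neurog3 was at 7.87 to 226.5 CPM in NP, 24.9 to 212 CPM in NM and 14.6 to 329 CPM in NPM cells. The part of these levels in the changes of Aldh1l1 was not tested. Adding Pdx1 to NM cells gave -3.69 ± 0.71 (SE, edgeR adjusted p = 0.0053), where 2.72% of all genes were called, and adding MafA to NP cells gave -2.82 ± 0.68 (SE, adjusted p = 0.024), where 1.88% were called. No other member passed in either comparison. A comparison of NPM cells with the other Ngn3 cells, chosen after these values were seen, gave -3.25 ± 0.66 (SE, adjusted p = 0.0054), and Aldh1l1 was the member called there, with 4.65% of all genes called. Without replicate 2 none of these calls was kept, the log2 fold changes being -2.62, -3.00 and -2.81 with adjusted p of 0.47, 0.51 and 0.31. The Ngn3 effect beside both factors was also set against the effect beside either factor, again after the values were seen. That difference was -2.85 ± 0.79 (SE, adjusted p = 0.15), in a test where 0.158% of all genes were called by edgeR. In it 2 members had an unadjusted p under 0.05, and DESeq2 called 1. Over all combinations the change of Aldh1l1 was -1.27 ± 0.36 (SE, adjusted p = 0.0096), at -1.06 without replicate 3 (adjusted p = 0.025), at -1.20 without replicate 1 (adjusted p = 0.064) and at -0.62 within passage 5 (adjusted p = 0.80).

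Aldh1l2, the mitochondrial partner of Aldh1l1, moved the other way. It ranged from 2.59 to 38.5 CPM without Ngn3, with a median of 16.0 CPM, and from 8.10 to 73.5 CPM with Ngn3, with a median of 28.96 CPM. Of the 17 samples with Ngn3, 15 lay above the median of those without, and 4 lay above all of them. The fitted log2 change was 0.93 ± 0.34 (SE) with an edgeR adjusted p of 0.047, and the call was lost without replicate 2 (0.60, adjusted p = 0.37) without replicate 3 (0.81, adjusted p = 0.11) and with only the first technical repeat of each sample (0.73, adjusted p = 0.16). In NPM cells it was 36.1, 21.4 and 37.5 CPM in WT replicates and 17.9 and 70.8 CPM in 6SA replicates. PM cells had 6.89, 12.2 and 16.0 CPM in WT replicates and 13.4, 6.21 and 28.4 CPM in 6SA replicates. All 5 NPM samples lay above the PM median and 3 above every PM sample, with a log2 fold change of 1.45 ± 0.56 (SE, adjusted p = 0.073).

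Aldh1l2 was the member whose level differed with passage. Passage 5 samples had 41.6 ± 18.2 CPM (SD, n = 8) and passage 2 samples 20.9 ± 14.1 CPM (SD, n = 24). The log2 difference was 1.21 ± 0.32 (SE) with an edgeR adjusted p of 0.020 in a fit that held the 12 conditions. Samples with and without Ngn3 had the same direction, with medians of 46.3 against 22.0 CPM with Ngn3 and 28.4 against 13.4 CPM without. Within passage 5 the change with Ngn3 was 0.89 (adjusted p = 0.28). Passage and replicate 3 cannot be told apart.

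**Figure D3:**
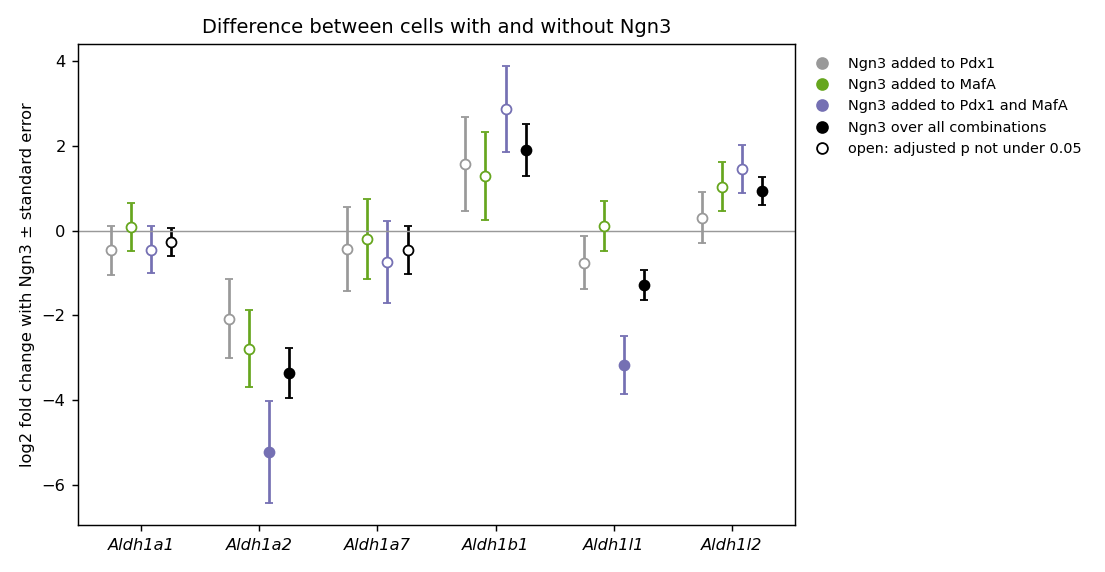
Fitted log2 fold change between cells with and without Ngn3 for 6 members, with standard errors, beside Pdx1, beside MafA, beside both and over all combinations; filled points have an adjusted p under 0.05. Aldh1l1 lies at -3.17 beside both factors and at 0.11 beside MafA, and Aldh1b1 lies above 0 in all 4 comparisons. Aldh1a3 is left out because its estimates beside MafA and over all combinations had no usable error.

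Aldh1a1, the retinaldehyde dehydrogenase used as a stem cell marker in many tissues, was present in every sample and every pool. It ranged from 5.90 to 60.3 CPM with Ngn3 (median 21.6 CPM) and from 2.11 to 54.4 CPM without (median 27.7 CPM), so the groups overlapped almost fully. This was a log2 fold change of -0.27 ± 0.33 (SE, edgeR adjusted p = 0.74), with an interval of -0.91 to 0.37. Its lowest value, 2.11 CPM, was in replicate 3 of 6SA M cells, and its highest, 60.3 CPM, in replicate 2 of 6SA NM cells. Combination means ran from 21.6 CPM in NP cells to 34.3 CPM in PM cells with SDs of 5.28 to 20.8 CPM, and the test for any difference among the 12 conditions gave an adjusted p of 1. NPM against PM cells gave -0.44 ± 0.56 (SE, adjusted p = 0.66).

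Aldh1a7 was lower and noisier than its neighbour. It ranged from 0.293 to 12.2 CPM with Ngn3 and from 0 to 13.1 CPM without, and 2 samples without Ngn3 had none. On the log2 scale the difference was -0.46 ± 0.56 (SE, edgeR adjusted p = 0.75), with an interval of -1.55 to 0.64, and NPM against PM cells gave -0.73 ± 0.97 (SE, adjusted p = 0.68). In 6 of the 17 samples with repeat pools, a pool with no Aldh1a7 count stood beside a pool of the same sample with more than 10. Over the 12 condition means the Pearson correlation of Aldh1a1 with Aldh1a7 on the log2(CPM + 1) scale was 0.20, a description over points that share their libraries.

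Aldh1a3, the marker of dedifferentiated β-cells, was near the limit of detection. In the Pdx1-only samples it had 7 and 8 counts in WT replicates and 16 and 11 counts in 6SA replicates, or 0.631 to 2.24 CPM, and P was the combination in which every sample had more than 3 counts. In M cells it had at most 1 count, in PM cells at most 5 and in NP or NM cells at most 7. All 5 NPM samples had 0 counts, where 3 counts would be 0.204 to 0.439 CPM. Of the 58 kept libraries, 16 had any Aldh1a3 count. Adding MafA to P cells gave a log2 fold change of -2.64 ± 1.51 (SE, edgeR adjusted p = 1), where edgeR called 0 genes, 531 genes had an unadjusted p under 0.05 and DESeq2 called 13 genes. Adding Ngn3 to Pdx1 gave -1.71 ± 1.48 (SE, edgeR adjusted p = 0.75). NPM against PM cells gave -3.95 ± 1.71 (SE, adjusted p = 0.12), with every NPM sample at 0. No fold change over all combinations is given, because the estimate had no usable error where whole conditions were at 0.

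Per kilobase of exon, on the CPM scale averaged over the 32 samples, Aldh1a1 was at 5.27 ± 2.86, Aldh1a2 at 4.84 ± 6.37, Aldh1b1 at 4.08 ± 4.98 and Aldh1l2 at 3.47 ± 2.33 (SD, n = 32). Aldh1l1 was at 2.86 ± 2.23, Aldh1a7 at 2.02 ± 1.74 and Aldh1a3 at 0.0673 ± 0.114. Neighbours in this order lay within their spread, apart from Aldh1a3, and the order differed with Ngn3. Without Ngn3 (n = 15) Aldh1a2 had the highest mean per kilobase at 8.74 ± 7.59, with Aldh1a1 at 5.88 ± 2.94 and Aldh1b1 at 1.45 ± 1.20. With Ngn3 (n = 17) Aldh1b1 had the highest at 6.39 ± 5.88, with Aldh1a1 at 4.74 ± 2.76 and Aldh1a2 at 1.40 ± 1.20. This order differed with passage. With Ngn3 at passage 2 (n = 12) Aldh1b1 was at 8.20 ± 6.08. At passage 5 (n = 5) Aldh1l2 was the highest at 6.65 ± 2.235, with Aldh1a1 at 3.38 ± 1.56 and Aldh1b1 at 2.06 ± 1.78. In cells with all 3 factors Aldh1b1 was the highest per kilobase, at 11.5 against 0.491 for Aldh1a2, 0.376 for Aldh1l1 and 4.90 for Aldh1a1.

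The wild-type and phospho-mutant forms of Ngn3 were compared over NP, NM and NPM cells. In this comparison edgeR called 0 genes (1421 at an unadjusted p under 0.05) and DESeq2 called 26, none of them in the family. Aldh1b1 was 19.8 ± 13.7 CPM (SD, n = 8) with 6SA Ngn3 and 10.2 ± 12.3 CPM (SD, n = 9) with wild-type Ngn3, a log2 difference of 1.38 ± 0.79 (SE, edgeR adjusted p = 0.88) with an interval of -0.16 to 2.93. For Aldh1a2 the difference was -1.46 ± 0.84 (SE, adjusted p = 0.88), and for Aldh1l1 it was 0.19 ± 0.50 (SE, adjusted p = 1). Aldh1a1, Aldh1a7 and Aldh1l2 had intervals that included 0. These intervals leave room for differences of several fold in Aldh1a2 and Aldh1b1. Without Ngn3, the WT and 6SA cultures carry the same vectors for Pdx1 and MafA, and edgeR again called 0 genes (591 at an unadjusted p under 0.05, 8 with DESeq2), with 0.75 ± 0.76 (SE) for Aldh1a2 and 0.45 ± 0.87 (SE) for Aldh1b1.

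Pdx1 and MafA were also compared in cells without Ngn3. Adding Pdx1 to MafA cells gave -1.55 ± 0.87 (SE, edgeR adjusted p = 1) for Aldh1a2, from 33.2 ± 21.2 CPM (SD, n = 5) in M cells to 11.9 ± 12.1 CPM (SD, n = 6) in PM cells. In this comparison edgeR called 0 genes, 689 had an unadjusted p under 0.05, and DESeq2 called 27, with no member among them.

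The pattern of each member over the 12 condition means was set against 14980 genes with a mean of at least 1 CPM, as a description. For Aldh1a2 the most alike were Nampt (r = 0.95), Dnmbp (r = 0.95) and Sirpa (r = 0.94). For Aldh1b1 they were Deptor (r = 0.96), Abhd16a (r = 0.96) and Fbxo44 (r = 0.96), and for Aldh1l1 they were Gm43594 (r = 0.94), Cbll1 (r = 0.93) and Sf3b4 (r = 0.93). For Aldh1l2 they were Gtpbp2 (r = 0.94), Armcx4 (r = 0.93) and Sec62 (r = 0.92). Aldh1a1 was most like Tbccd1 (r = 0.89), Sp2 (r = 0.86) and Nup205 (r = 0.85), and Aldh1a7 most like Eif2ak1 (r = 0.89), Cep63 (r = 0.84) and Zfp317 (r = 0.84). Among the members themselves Aldh1a2 had r = 0.77 with Aldh1l1 and r = -0.75 with Aldh1b1. The points share libraries and depth, and the 3 genes were picked as the highest of many.

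Genes of retinoic acid handling outside the family were read in the same comparison. Of 22 tested genes of the retinoid pathway outside the family, 7 fell and 2 rose with Ngn3, and the median log2 fold change was -0.53. Rarb, a retinoic acid receptor whose gene is itself switched on by retinoic acid, fell from 29.5 ± 11.3 CPM (SD, n = 15) to 5.89 ± 6.07 CPM (SD, n = 17), with a log2 fold change of -2.78 ± 0.42 (SE, edgeR adjusted p = 1.2e-05). Stra6, the receptor for retinol-binding protein, changed by -3.86 ± 0.65 (SE, adjusted p = 6.3e-05). Dhrs3, which turns retinaldehyde back to retinol, changed by -2.32 ± 0.37 (SE, adjusted p = 2.8e-05). The 2 that rose were Rbp4, the secreted retinol-binding protein, at 2.27 ± 0.37 (SE, adjusted p = 4.3e-05), and Bco1, which cleaves β-carotene to retinaldehyde, at 2.42 ± 0.68 (SE, adjusted p = 0.010). Rdh10, Rara and Rarg also fell. The Cyp26 enzymes, which break retinoic acid down, were near the limit of detection, with more than 3 counts in 4 samples for Cyp26a1 and in 5 for Cyp26b1.

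**Figure D4:**
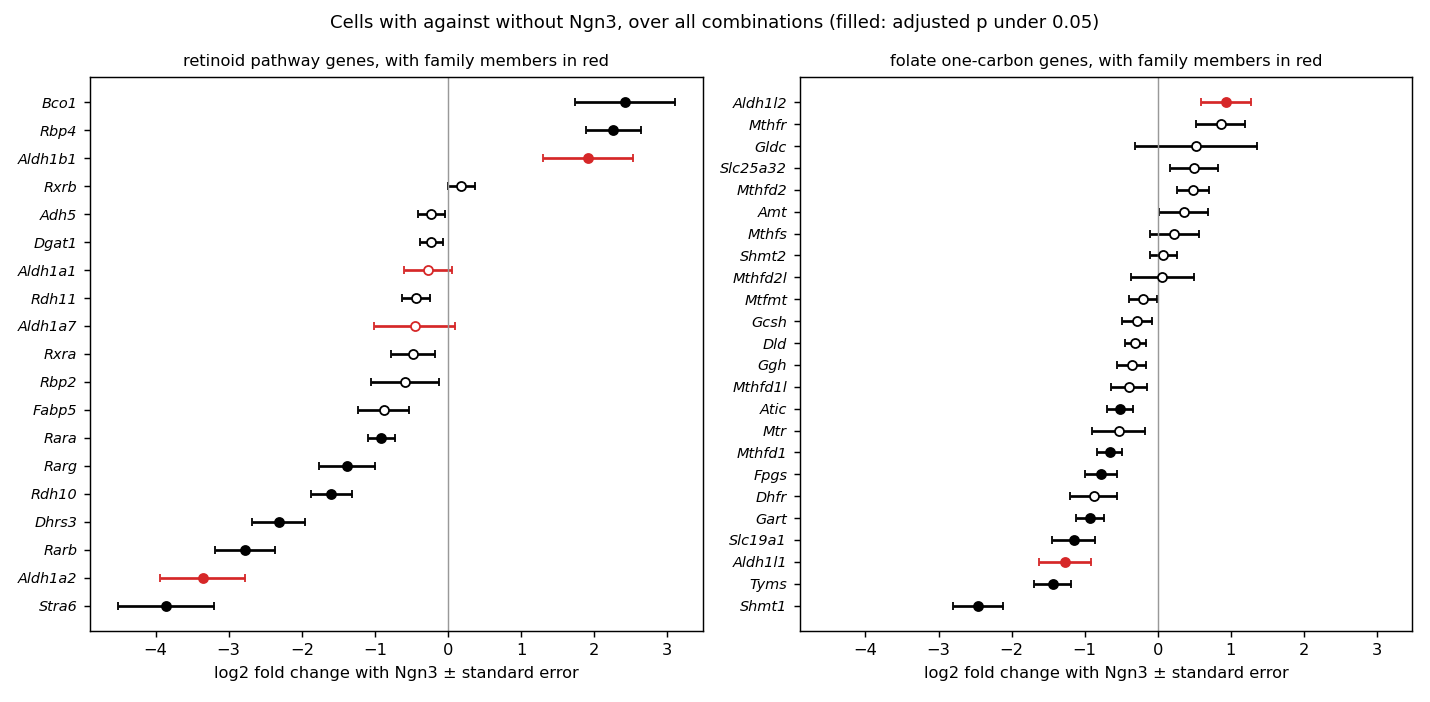
Fitted log2 fold change with Ngn3 over all combinations, with standard errors, for genes of the retinoid pathway (15 of 22 tested) and of folate one-carbon metabolism (22), with Aldh1 members in red; filled points have an adjusted p under 0.05. The tested retinoid genes that are not drawn include those with a standard error of 3 or more. Of the 22 tested, 16 had a standard error under 3, and not all of these are drawn. Aldh1a2 lies at -3.36 near Rarb at -2.78 and Stra6 at -3.86, and Aldh1l1 at -1.27 near Tyms at -1.44.

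Genes of folate metabolism outside the family were mostly lower with Ngn3 where they passed the test. Of 22 tested genes of folate one-carbon metabolism, 7 fell with Ngn3 and edgeR called 0 higher (11 in either direction at an unadjusted p under 0.05), whereas DESeq2 called 2 higher and 7 lower. The median log2 fold change was -0.33. Shmt1, the cytosolic serine hydroxymethyltransferase, changed by -2.46 ± 0.34 (SE, adjusted p = 3.6e-06), while its mitochondrial counterpart Shmt2 had 0.08 ± 0.18 (SE, adjusted p = 1). Tyms, the thymidylate synthase of DNA synthesis, changed by -1.44 ± 0.25 (SE, adjusted p = 0.00010), Gart of purine synthesis by -0.93 ± 0.19 (SE, adjusted p = 0.00067) and the folate carrier Slc19a1 by -1.15 ± 0.30 (SE, adjusted p = 0.0050). Whether the cytosolic and mitochondrial enzymes differed as groups was not tested.

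Among 12 tested aldehyde dehydrogenases outside the family, 4 fell, edgeR called 0 higher (5 in either direction at an unadjusted p under 0.05) and DESeq2 called 1 higher and 4 lower. Those that fell were Aldh7a1 at -1.07 ± 0.15 (SE, adjusted p = 6.9e-06), Aldh3a1 at -4.75 ± 0.89 (SE, adjusted p = 0.00024), Aldh2, the mitochondrial enzyme of ethanol oxidation, at -0.96 ± 0.22 (SE, adjusted p = 0.0017), and Aldh16a1 at -0.80 ± 0.26 (SE, adjusted p = 0.029). The median of these genes was -0.18.

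Of 12 tested progenitor genes, 5 fell and 1 rose. Lgr5 changed by -2.36 ± 0.29 (SE, edgeR adjusted p = 5.9e-07), Cd24a by -0.87 ± 0.14 (SE, adjusted p = 5.0e-05) and Myc by -1.38 ± 0.31 (SE, adjusted p = 0.0016). The gene that rose was Nkx6-1, at 3.74 ± 0.82 (SE, adjusted p = 0.0014). Aldh1b1 thus rose in cells where 5 of these genes fell. Of the duct markers, 9 of 12 fell, among them Muc1, Car2 and Slc4a4, and all 14 endocrine markers rose, Scg3, Neurod1, Rfx6 and Pcsk1 having the lowest adjusted p. Markers of acinar cells (1 of 4 tested, Cela1, lower) and immune cells (1 of 5 tested, Csf1r, lower) each had 1 call by edgeR, with DESeq2 calling 1 higher and 1 lower in each list. Neither edgeR nor DESeq2 called any of 6 mesenchymal or 5 endothelial markers, and none of these had an unadjusted p under 0.05.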

How the data were processed

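RNA from pools of 50 sorted organoid cells was sequenced by a Smart-seq protocol with Nextera XT libraries and single-end 50-base reads. The deposited values are counts: per the labels and methods, the authors aligned reads with GSNAP to mm10 and counted them over Ensembl release 81 genes with HTSeq (0.5.3p3), and no strand setting is given in the sources used here. The file's tally of reads aligned in more than 1 place is 0 in every library, and how such reads were handled is not given in the sources used here. Reads on no gene were 6.42% to 27.8% of a library.

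Libraries with fewer than 1000000 gene counts were left out (3 of 61), repeat pools were summed, and genes with a count in at least 5 libraries and a variance of log2(CPM + 1) above 0.001 were tested (24004). The main test was edgeR 4.0.16, quasi-likelihood, with TMM scaling in R 4.3.3. It used 1 fit of the 12 conditions, with Benjamini-Hochberg adjustment over all genes. Contrasts average the conditions equally. Passage 5 alone did not allow this, since its conditions had 1 sample each and were not all present. DESeq2 1.42.0 was an alternative. Intervals are 95%, the estimate plus or minus 1.96 standard errors. The fits were tested on simulated counts.

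All 7 members are described for Ngn3 over all combinations and for NPM against PM, and fewer in the other comparisons, although the rule named all of them in each. Of each gene list, up to 4 called genes in each direction with the lowest adjusted p are named, with other genes added after their values were seen (Rdh10, Rara, Rarg, Shmt2, Cyp26a1 and Cyp26b1). Some genes counted in the lists are not reported here by name. The 3 most alike genes were chosen by Pearson correlation of condition means. The members and lists were chosen with earlier results of these data known. NPM cells against the other Ngn3 cells, the test of the effect beside both factors, the fit of passage 5 alone, the test between passages and the fits without replicate 1 of WT NM cells were added after seeing the data.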

Additional observations from a re-analysis of the deposited data

Results flagged for a closer look

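Libraries with under 1000000 gene counts were left out of the comparisons, and 3 values in them lay above every kept PM library. Aldh1b1 was 24.8 CPM of gene counts in technical repeat 2 of replicate 2 of 6SA NPM cells (6 counts, 95% exact Clopper-Pearson interval 9.12 to 54.1) and 20.8 in technical repeat 1 of replicate 2 of WT NPM cells (13 counts, interval 11.1 to 35.5), where the highest kept PM library had 8.14. Aldh1l2 was 46.5 in technical repeat 1 of replicate 3 of 6SA NPM cells (19 counts, interval 28.0 to 72.6), where the highest kept PM library had 25.2. Other values in these libraries went the other way. Aldh1b1 had 0 counts in the same library of replicate 3 of 6SA NPM cells (upper bound 9.025). The lowest kept 6SA NPM library had 16.4 for Aldh1b1. Aldh1l1 was 11.2 CPM of gene counts in the same WT NPM library (7 counts, interval 4.498 to 23.1), above every kept NPM library (highest 5.23) and below the highest kept PM library (22.6), and Aldh1l2 had 0 counts in the same library of replicate 2 of 6SA NPM cells (upper bound 15.3), whose kept pool had 83.7. The intervals cover counting error only.

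Of 76 groups of 4 to 9 samples checked by Dixon's ratio, 11 had a highest sample far from the others, and chance flags about 1 group in 20. Aldh1a2 was 35.9 CPM in replicate 1 of 6SA PM cells, with the next PM sample at 10.7 CPM. Aldh1b1 was 28.8 CPM in replicate 1 of 6SA NM cells (next 8.20 CPM) and 11.3 CPM in replicate 3 of 6SA NP cells among the passage 5 samples (next 4.92 CPM). Aldh1l1 was 39.5 CPM in replicate 2 of WT NM cells, with the next WT sample with Ngn3 at 11.3 CPM. Aldh1a7 was highest in the same WT NM sample, at 9.65 CPM (next 3.26 CPM), and in replicate 2 of 6SA NM cells, at 12.2 CPM (next 5.81 CPM among 6SA samples with Ngn3). The other 5 were of Aldh1a3 near the limit of detection: 0.308 CPM in replicate 2 of WT M cells, 0.872 CPM in replicate 2 of WT PM cells, 1.35 CPM in replicate 2 of WT NP cells, 2.24 CPM in replicate 2 of WT P cells and 0.306 CPM in replicate 3 of 6SA NM cells.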

How the results depend on the processing

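Members called, against 4 of 7 for Ngn3 over all combinations, were 2 to 3 with a replicate left out and 0 at passage 5 alone (439 genes called in all, against 5168); a fit of passage 5 and leaving out replicate 1 of WT NM cells were chosen after seeing the data. With a replicate left out, the log2 fold change over all combinations ran from -0.60 to 0.016 for Aldh1a1 and from -0.56 to 0.44 for Aldh1a7, turning direction without replicate 1, and for NPM against PM Aldh1a7 ran from -1.93 to 0.63, turning without replicate 2, and none of these passed a test. The fit of passage 5 gave 2.07 for Aldh1a3, from 2 counts in 1 sample against a group at 0, which carries no weight. In WT cultures, where 0 were called, 2 were called with DESeq2 (2830 genes in all, against 2062) and 3 with no gene filter (2788). The newer quasi-likelihood setting gave 1 (2248), the first technical repeat only gave 1 (1909) and only the conditions compared gave 2 (2114). With a replicate left out, 0 to 1 were called. In 6SA cultures (1 called, 3384 genes in all) it was 2 with plain totals (3511), DESeq2 (4181) and no gene filter (3784). The newer setting (4111) and only the conditions compared (2865) also gave 2, and leaving a replicate out gave 0 to 2. For Ngn3 added to Pdx1 (0) it was 1 with no gene filter (1273 genes in all, against 358). For Ngn3 added to MafA (0, with 1121 genes in all) it was 1 with DESeq2 (1945) and no gene filter (2077). The newer setting (1338) and only the conditions compared (1361) gave 1 as well. For NPM against PM (2) it was 4 with RLE size factors (4383 genes in all, against 4279), plain totals (4292) and DESeq2 (5198). No gene filter (4633), the newer setting (5098) and only the conditions compared (4021) gave 4 as well. Leaving a replicate out gave 0 to 3, with 880 genes called in all without replicate 2 against 4279. For Pdx1 added to NM cells (1) it was 2 with DESeq2 (1948 genes in all, against 654) and 3 with no gene filter. All libraries gave 2, and leaving a replicate out gave 0 to 2. For MafA added to NP cells (1) it was 2 with DESeq2 (1371 genes in all, against 451) and with no gene filter. The first technical repeat only and only the conditions compared each gave 0, and leaving a replicate out gave 0 to 2. For NPM against the other Ngn3 cells (1) it was 2 with DESeq2 (2094 genes in all, against 1117). RLE size factors, filterByExpr and all libraries also gave 2, no gene filter gave 3, and leaving a replicate out gave 0 to 3. For the Ngn3 effect beside both factors against beside either (0) it was 1 with DESeq2 (471 genes in all, against 38). No gene filter gave 2 there. For any difference among conditions (1) it was 0 with plain totals and 2 with DESeq2 (3272 genes in all, against 1729). The newer setting and all libraries also gave 2, no gene filter gave 3, and leaving a replicate out gave 0 to 3. For passage (1) it was 2 with no gene filter, and 1 to 2 with a replicate left out. The cause was not tested, except that leaving out replicates leaves fewer samples.

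Replicate numbers recur in every condition. Over the 5000 most expressed genes, 12 of 14 same-numbered pairs deviated together with a correlation over 0.1 (range -0.39 to 0.75), the 6SA NPM and PM pairs being the exceptions, and 28 of 32 samples were closest to their own number. Because not every pair was over 0.1 and no source used here says that same-numbered samples came from 1 animal, the numbers were not taken to pair the samples. The main p-values therefore treat cells sorted from the same cultures as separate samples. Of the 14 pairs, Aldh1a2 was lower with Ngn3 in 13 and Aldh1l1 in 10. Aldh1b1 was higher with Ngn3 in 12 of them and Aldh1l2 in 11. With the replicate number as a block, members called were 2 in WT cultures, 2 in 6SA cultures, 1 for Ngn3 added to MafA, 4 for NPM against PM, 2 for Pdx1 added to NM cells, 3 for NPM against the other Ngn3 cells, 1 for the effect beside both factors against beside either, 3 for any difference, and 4 for Ngn3 over all combinations. Genes called in all rose too, from 2062 to 3197 in WT cultures, from 3384 to 4849 in 6SA cultures, from 1121 to 2123 for Ngn3 added to MafA, from 4279 to 5529 for NPM against PM and from 5168 to 6620 over all combinations.

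Aldh1a3 was at or below the limit of detection in 22 of the 32 samples, and Aldh1a2 in 5 of the 17 with Ngn3. Among these 5 was the deepest sample, replicate 1 of 6SA NP cells, with 0 counts of Aldh1a2 at a limit of 0.136 CPM. The median log2 fold change of all genes was 0.07 with TMM, 0.15 with RLE size factors and 0.28 with plain totals.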
